A study of Mus musculus with 15 samples.

Results

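The genes described here are 10 genes of antioxidant and lipid peroxide defence: Prdx2, Gpx1, Cat, Gpx4, Gclc, Gclm, Txnrd1, Sod1, Sod2 and Nfe2l2. They were taken by gene symbol from the 55487 mouse genes that the count tables list. Each of the 10 symbols matched 1 row in each table, and all 10 passed the filter on low counts in every fit. In erythroid progenitors carrying an Rpl5 mutation, 5 of them fell against wildtype when both groups of mice were fitted together, where 9.8% of all tested genes fell: Prdx2, Gpx1, Gclm, Gclc and Gpx4. The call of Gpx4 (adjusted p 0.0445, edgeR) was lost in 9 of 12 fits that left out 1 library. By edgeR's test with its default filter on low counts, none of the 10 rose past the threshold in any of the 6 comparisons made; Sod2 did so over both groups with a stricter filter and with voom.

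Cells that live on oxygen form superoxide and hydrogen peroxide, and red cell precursors, which load themselves with iron and haem, are known for their dependence on the enzymes that remove them. Superoxide dismutases turn superoxide into hydrogen peroxide, which catalase, the glutathione peroxidases and the peroxiredoxins then break down. The glutathione peroxidases draw on glutathione, made from cysteine and glutamate in a pathway whose first and limiting step is carried out by glutamate-cysteine ligase, while the peroxiredoxins draw on thioredoxin, which thioredoxin reductase recharges. Gpx4 is the member of its family that reduces peroxides within membrane lipids, and its loss leads to ferroptosis, an iron-dependent form of cell death. Nfe2l2 encodes NRF2, the transcription factor that, with a small MAF partner, switches on many of these genes through the antioxidant response element.

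RNA sequencing had been done on fetal liver erythroid progenitors of mouse embryos of strain 129S6/SvEvTac at stage E12.5. The mice formed 2 groups. Group 1 gave 3 wildtype and 3 Rpl5 mutant libraries, labelled as polyA RNA. Group 2 gave 3 wildtype, 3 Rpl5 mutant and 3 low-yield Rpl5 mutant libraries, labelled as total RNA. The sample sheet of group 2 names the mutant genotype Rpl5plusSkax23Jus, and the allele of group 1 is given only as mutant. What low-yield refers to is not defined in the labels. No treatment and no transgene are named for any group. The series title concerns a lipid metabolism defect in Diamond Blackfan anemia syndrome, an inherited anaemia that mutations of ribosomal protein genes such as RPL5 can cause. Nothing in the labels says whether the replicates came from separate embryos, so the p-values measure the spread between these libraries. Levels are given as CPM, read counts scaled by TMM-corrected library size. Since 1 group of mice is labelled as polyA and the other as total RNA, no level was set against one of the other group.

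Total counts ranged from 48510828 to 58513669 per library in group 1 and from 24954324 to 44827821 in group 2. Rpl5, the mutated gene, was lower in every mutant library (520 to 570 CPM in group 1, 219 to 278 CPM over both mutant groups of group 2) than in every wildtype library of its group (656 to 744 and 303 to 374 CPM). The labelled cell type was checked against 9 erythroid progenitor genes, all of which were above 1 CPM on average in every group. Over both groups of mice 7 of these 9 fell, where 9.8% of all tested genes fell. Among the 7 were Klf1 (-0.50 on the log2 scale), Epor (-0.37), Alas2 (-1.62) and the globin genes Hba-a1 (-1.60) and Hbb-bs (-1.22). The receptor gene Kit rose (0.38) and Gata1 stood at 0.10 (adjusted p 0.208, edgeR quasi-likelihood test).

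Summed over the 9 erythroid genes, the level was 4750 to 5810 CPM in wildtype and 2930 to 3030 in mutant libraries of group 1. In group 2 it was 6430 to 11100 in wildtype, 4270 to 5060 in mutant and 3750 to 4900 in low-yield mutant libraries. The globin genes weighed heavily in this sum. Hba-a1 averaged 1320 CPM in wildtype and 424 in mutant libraries of group 1, and Hbb-bs 1690 and 781. In group 2 Hba-a1 averaged 2160, 729 and 659 CPM in wildtype, mutant and low-yield mutant libraries, and Hbb-bs 4050, 1610 and 1370. The sum of 10 granulocyte markers was 103 to 769 CPM in wildtype and 265 to 1460 in mutant libraries of group 1, and replicate 1 was the lowest in both genotypes. In group 2 that sum was 18 to 37.4 in wildtype, 143 to 236 in mutant and 180 to 394 in low-yield mutant libraries, with no marker at 0 in every library of a group. Of these 10 markers, 0 were called in group 1 and 0 over both groups, 7 rose in the mutant of group 2 and 10 rose in the low-yield mutant. Of all tested genes, 3.32% rose in the mutant of group 2 and 6.68% in the low-yield mutant. The marker counts of group 2 given below stand against the same shares. Summed macrophage markers (9 genes) stayed between 0.949 and 12.2 CPM in the 15 libraries, with Cd5l at 0 in every library, and lymphoid markers (4 genes) between 0 and 1.66, with Cd3e at 0 in every library. Hepatocyte markers (7 genes) summed to 28.9 to 53.8 CPM in wildtype and 4.9 to 17.6 in mutant libraries of group 1, and to 7.29 to 64.6 CPM over the libraries of group 2. Megakaryocyte markers (5 genes) summed to 18.4 to 28.4 CPM in wildtype and 26.6 to 38.9 in mutant libraries of group 1, and to 15.7 to 18.4, 25.2 to 25.7 and 34.9 to 45.9 CPM in the wildtype, mutant and low-yield mutant libraries of group 2. Endothelial markers (4 genes) summed to 1.89 to 4.04 CPM in wildtype and 3.91 to 9.67 in mutant libraries of group 1, and without overlap to 0.809 to 1.87, 3.49 to 5.1 and 6.06 to 9.59 CPM in the wildtype, mutant and low-yield mutant libraries of group 2. Of the 3 endothelial genes tested in group 2, all 3 rose with low yield and 1 in the other mutant. Early progenitor markers (7 genes) summed to 4.78 to 16.4 CPM in wildtype and 8.99 to 45.2 in mutant libraries of group 1, and to 5.63 to 8, 12.6 to 18 and 14.4 to 22.5 CPM in group 2, where both mutant groups were above wildtype and 1 of 5 tested genes rose in each. Mitochondrial genes took 2.36% to 2.81% of counts in wildtype and 1.6% to 1.98% in mutant libraries of group 1, and 0.499% to 1.22% over group 2. The part of these shifts in cell content in the differences reported below was not tested, and in bulk RNA fewer cells of a type and less RNA per cell cannot be told apart.

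The sequence that NRF2 is known to bind was looked for in the promoters of the members, since 9 of the 10 genes matched the RefSeq promoter table of GRCm38.p6 (Gclc did not). Each promoter window holds 300 bases, from 250 before to 50 after an annotated start. The core of the antioxidant response element, searched as TGACNNNGC on both strands, was in 4 of the 14 windows of these 9 genes, 1 each for Nfe2l2, Gclm, Txnrd1 and Sod1. It was in 12.39% of the 32851 windows of the table. The 4 matches are shown with 10 bases on either side, in the direction of the motif, because they allow members that fell and members that did not to be read side by side; capitals mark the match.
Nfe2l2, chr2:75704885-75704913, minus strand: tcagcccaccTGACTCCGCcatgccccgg
Gclm, chr3:122245413-122245441, minus strand: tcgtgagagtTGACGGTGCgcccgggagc
Txnrd1, chr10:82859104-82859132, minus strand: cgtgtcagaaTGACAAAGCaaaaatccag
Sod1, chr16:90220696-90220724, minus strand: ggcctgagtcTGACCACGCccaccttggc
The match begins 240 bases before the start of Nfe2l2, 134 before that of Gclm, 92 before 1 of the 3 starts of Txnrd1 and 56 before that of Sod1.

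The whole windows of Gclm and Txnrd1 are given as well, both on the plus strand and with the match, read on the other strand, in capitals. They belong to a member that fell in every comparison with wildtype and to one that was called in none.
Gclm, chr3:122245307-122245606: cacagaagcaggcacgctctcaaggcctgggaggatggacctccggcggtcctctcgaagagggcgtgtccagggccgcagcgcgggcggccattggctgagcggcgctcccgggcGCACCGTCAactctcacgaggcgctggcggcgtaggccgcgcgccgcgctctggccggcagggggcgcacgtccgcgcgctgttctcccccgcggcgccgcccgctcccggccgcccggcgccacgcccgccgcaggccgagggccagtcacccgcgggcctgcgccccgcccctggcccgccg
Txnrd1, chr10:82858956-82859255: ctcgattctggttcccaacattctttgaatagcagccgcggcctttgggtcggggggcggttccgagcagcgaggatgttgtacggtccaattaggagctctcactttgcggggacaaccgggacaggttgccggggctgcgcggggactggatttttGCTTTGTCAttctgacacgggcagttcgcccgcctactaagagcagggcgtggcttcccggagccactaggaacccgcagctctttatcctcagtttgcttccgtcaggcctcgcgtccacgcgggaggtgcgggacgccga
The GATA motif AGATAA and the CACCC box CCACACCC, which the erythroid factors GATA1 and KLF1 are known to bind, were in 0 of the 14 member windows on either strand, and in 11.18% and 3.56% of all windows. Only these exact words were searched, so other forms of either motif were not looked for and may be present. A match is a description of these letters in this window and not a measured binding site.

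Prdx2 and Gclm fell in each comparison with wildtype, Gclc and Gpx1 in some of them. In group 1 the mutant had 3 members lower, Prdx2, Gclc and Gclm, where 12.6% of 14048 tested genes were called in either direction and 6.78% were lower. The count fell to 1 without wildtype replicate 1 or mutant replicate 3, where 1051 and 753 genes were called in place of 1766. This fit had no replicate block. With the replicate number as a block, Gpx1 was called too (adjusted p 0.00976, edgeR), and 2863 genes were called. In group 2 the mutant had 2 members lower, Prdx2 and Gclm, where 6.27% of 15024 tested genes were called and 2.95% were lower. That count fell to 0 without wildtype replicate 3 or mutant replicate 1, where 480 and 439 genes were called in place of 942. With DESeq2 and voom 1452 and 1928 genes were called, and Gpx1 passed as well (adjusted p 0.0324 with DESeq2 and 0.041 with voom). The low-yield mutant had 4 members lower, Prdx2, Gpx1, Gclc and Gclm, where 5.86% of the 15024 tested genes were lower and 6.68% higher. That count fell to 0 without low-yield replicate 1 and to 2 without low-yield replicate 2, where 902 and 900 genes were called in place of 1884. Both comparisons of group 2 share their wildtype libraries. The fit over both groups of mice, with 12 libraries, had 5 members lower where 19.6% of 15954 tested genes were called and 9.8% were lower.

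The estimates lay below 0 for 8 of the 10 members in each of these 4 comparisons, Sod2 and Txnrd1 being the others. The median log2 fold change of the 10 was -0.15 in group 1, -0.18 in the group 2 mutant, -0.23 in the low-yield mutant and -0.16 over both groups, where the medians of all tested genes were 0.01, -0.01, 0 and 0. Every mutant library was below every wildtype library for 6 members in group 1 (16.6% of all tested genes were lower in this way), for 5 in the group 2 mutant (11.8%) and for 4 in the low-yield mutant (14.6%). Over both groups 4 members, Prdx2, Gpx1, Gclc and Gclm, were separated in this way within each group of mice (6.35% of genes). As a share of all counts, the 10 genes took 0.382% to 0.393% in wildtype and 0.331% to 0.351% in mutant libraries of group 1. In group 2 they took 0.333% to 0.345% in wildtype, 0.285% to 0.308% in mutant and 0.264% to 0.319% in low-yield mutant libraries.

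**Figure D1:**
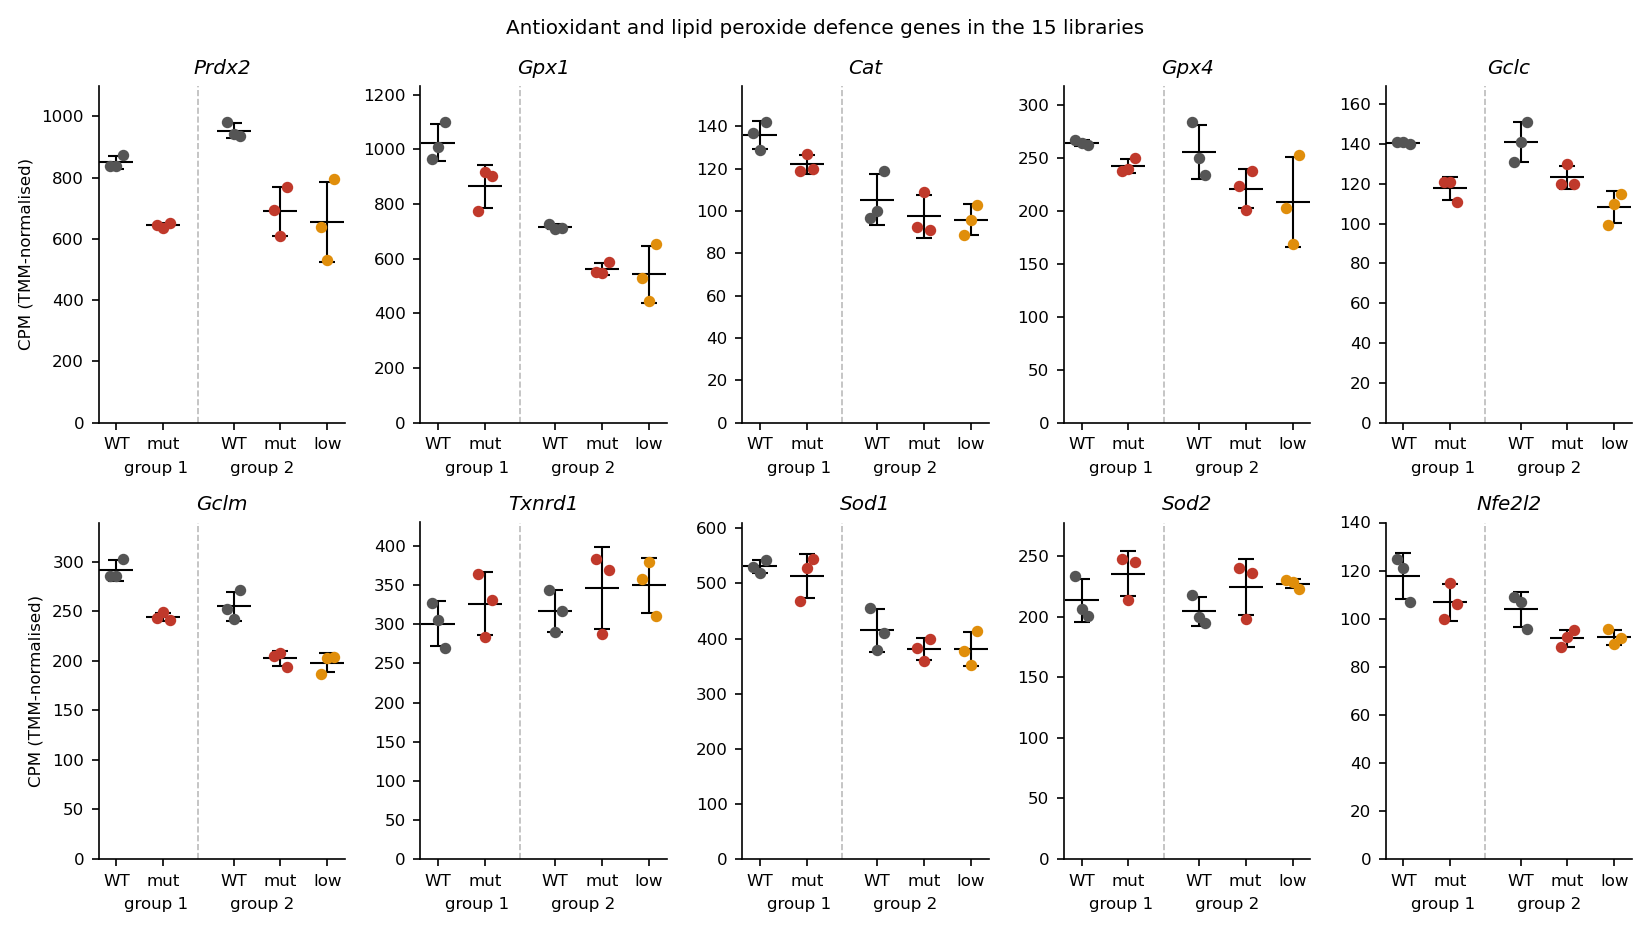
Level of each member in CPM (vertical axis, from 0) in every library, with points for libraries and bars for the group mean and SD (n = 3), for wildtype (WT), mutant (mut) and low-yield mutant (low) libraries of the 2 groups of mice. Prdx2, Gpx1, Gclc and Gclm sit lower in all mutant groups, while Txnrd1 overlaps between the groups throughout.

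Prdx2, the peroxiredoxin known as one of the most abundant proteins of the red cell, fell the most of the 10. It lies on chromosome 8 of GRCm38, 84969587 to 84974834, plus strand. In group 1 its level was 837, 836 and 874 CPM in the wildtype libraries and 645, 635 and 652 CPM in mutant ones. Group 2 held 981, 943 and 935 CPM in wildtype, 694, 608 and 768 CPM in mutant and 639, 532 and 794 CPM in low-yield mutant libraries. No mutant library of either kind reached the lowest wildtype library of its group, and low-yield replicates 2 and 3 marked the lowest and highest mutant values of group 2. On the log2 scale the mutant of group 1 differed by -0.40 (SE 0.06, adjusted p 0.00106), that of group 2 by -0.47 (SE 0.12, adjusted p 0.0399) and the low-yield mutant by -0.54 (SE 0.12, adjusted p 0.0115, all by edgeR's quasi-likelihood test with Benjamini-Hochberg adjustment over all tested genes). Over both groups Prdx2 was at 0.741 of its wildtype level (log2 fold change -0.43, SE 0.05, adjusted p 1.37e-05, edgeR). The call in the group 2 mutant was lost in 6 of 9 fits that left out 1 library, any of the 3 wildtype libraries, mutant replicates 1 and 2, or low-yield replicate 1 (adjusted p 0.0652 to 0.138), and without the filter on low counts (adjusted p 0.0977). The call in the low-yield mutant was lost without its replicate 1 (-0.52, adjusted p 0.0602) or 2 (-0.41, adjusted p 0.0581). Exons of Prdx2 share 173 bases with Junb and 177 with Rnaseh2a on the opposite strand, at 5.67% and 5.8% of its exon length, and reads there cannot be assigned to one strand because the strand setting is not stated.

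Gpx1, the main glutathione peroxidase of the cytosol and a selenoprotein, was next in size over both groups and in both mutants of group 2, while in group 1 Gclc and Gclm had larger falls. It lies on chromosome 9, 108338903 to 108340343, plus strand. Wildtype libraries of group 1 held 965, 1010 and 1100 CPM and mutant libraries 775, 917 and 902 CPM. In group 2 the values were 728, 710 and 714 CPM in wildtype, 553, 548 and 589 CPM in mutant and 528, 445 and 654 CPM in low-yield mutant libraries. All mutant libraries lay below the wildtype libraries of their group. Gpx1 fell in the low-yield mutant (log2 fold change -0.40, SE 0.11, adjusted p 0.0235) and over both groups (-0.30, SE 0.05, adjusted p 0.00027, edgeR). In group 1 it was at -0.25 (SE 0.08, adjusted p 0.0587) and in the group 2 mutant at -0.35 (SE 0.11, adjusted p 0.0712, edgeR), both short of the threshold. Whether the replicate numbers pair the libraries of group 1 is not settled. With the replicate number as a block, 2863 genes were called in group 1 in place of 1766. Gpx1 passed in that fit (-0.25, SE 0.07, adjusted p 0.00976, edgeR). It also passed in group 1 with DESeq2 (adjusted p 0.00731), without the filter on low counts (0.0295), among genes with a mean of at least 5 CPM (0.0476) and without mutant replicate 2 (0.035). In the group 2 mutant it passed with DESeq2 (adjusted p 0.0324), with voom (0.041), when only the 6 compared libraries were fitted (0.0283) and without low-yield replicate 2 or 3 (0.0374 and 0.0234). The call in the low-yield mutant was lost in 4 fits that left out 1 library: wildtype replicate 2 or 3, or low-yield replicate 1 or 2 (adjusted p 0.0633 to 0.141).

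Cat, which encodes catalase, was not called in any of the 6 comparisons by edgeR's test with all libraries. It lies on chromosome 2, 103453849 to 103485160, minus strand. Its level was 137, 129 and 142 CPM in wildtype and 119, 127 and 120 CPM in mutant libraries of group 1, without overlap. In group 2 it was 96.9, 100 and 119 CPM in wildtype, 92.5, 109 and 90.8 CPM in mutant and 88.5, 95.9 and 103 CPM in low-yield mutant libraries, which overlapped. The log2 fold change was -0.16 in group 1, -0.11 in the group 2 mutant, -0.14 in the low-yield mutant and -0.14 over both groups (SE 0.06, adjusted p 0.133, edgeR). Over both groups it passed with voom (-0.15, adjusted p 0.0483) and without group 2 wildtype replicate 1 (-0.17, adjusted p 0.0478, edgeR).

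Gpx4, the peroxidase of membrane lipids, had a smaller and less certain fall. It lies on chromosome 10, 80047166 to 80056439, plus strand. Group 1 had 267, 264 and 262 CPM in wildtype and 238, 240 and 250 CPM in mutant libraries, again without overlap. Group 2 had 284, 250 and 234 CPM in wildtype, 224, 201 and 238 CPM in mutant and 203, 169 and 253 CPM in low-yield mutant libraries, and each mutant group overlapped wildtype. Gpx4 was called over both groups (log2 fold change -0.17, SE 0.06, adjusted p 0.0445, edgeR) and in none of the single comparisons (-0.12, -0.21 and -0.30, with adjusted p of 0.172, 0.392 and 0.153). With voom the low-yield mutant passed (-0.33, adjusted p 0.0431). The call over both groups was lost in 9 of 12 fits that left out 1 library, all but those without group 1 mutant replicate 3, group 2 wildtype replicate 3 or group 2 mutant replicate 3 (adjusted p 0.0564 to 0.123 in the 9), and with voom (0.0603). Without low-yield replicate 3, the highest of its group, the low-yield mutant was at -0.46 with an adjusted p of 0.0154 (edgeR). A transcribed pseudogene, Gpx4-ps2, matches Gpx4 at 99.7% identity and held 5.426% as many counts. Summing both with the other near-identical copy gave -0.16 over both groups (adjusted p 0.0491, edgeR).

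Both subunits of glutamate-cysteine ligase fell in group 1, in the low-yield mutant and over both groups, and in the group 2 mutant Gclm alone was called. Gclc, the catalytic subunit, lies on chromosome 9, 77754535 to 77794485, plus strand. Its level was 141, 141 and 140 CPM in wildtype and 121, 121 and 111 CPM in mutant libraries of group 1. Values of group 2 were 131, 141 and 151 CPM in wildtype, 120, 130 and 120 CPM in mutant and 99.3, 110 and 115 CPM in low-yield mutant libraries. The wildtype libraries were above all mutant libraries of their group, and the low-yield mutant libraries were all below those of the other mutant. Gclc differed by -0.26 on the log2 scale for the mutant of group 1 (SE 0.06, adjusted p 0.0162), by -0.19 for that of group 2 (SE 0.09, adjusted p 0.213), by -0.38 with low yield (SE 0.09, adjusted p 0.00797) and by -0.23 over both groups (SE 0.05, adjusted p 0.00507, edgeR). The call in group 1 was lost without wildtype replicate 1 or 2 or mutant replicate 3 (adjusted p 0.0759 to 0.0998), and that in the low-yield mutant without its replicate 1 (0.0649).

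Gclm, the modifier subunit that makes the enzyme more efficient, was the only member besides Prdx2 called in each comparison with wildtype. It lies on chromosome 3, 122245557 to 122270732, plus strand, and its promoter window is one of those printed above. In group 1 it stood at 285, 285 and 303 CPM in wildtype and at 243, 249 and 241 CPM in mutant libraries. In group 2 the levels were 252, 242 and 271 CPM in wildtype, 205, 208 and 194 CPM in mutant and 187, 203 and 204 CPM in low-yield mutant libraries, with no overlap with wildtype. Its log2 fold change for the mutant was -0.25 (SE 0.06, adjusted p 0.0139) among group 1 libraries, -0.33 (SE 0.08, adjusted p 0.018) among those of group 2, -0.37 with low yield (SE 0.08, adjusted p 0.0058) and -0.29 over both groups (SE 0.05, adjusted p 0.000209, edgeR). Calls of Gclm were lost in 3 of 6 fits that left out 1 library in group 1 (wildtype replicate 1 or 3, or mutant replicate 3), in 3 of 9 for the group 2 mutant (wildtype replicate 3, or mutant replicate 1 or 3) and in 1 of 9 for the low-yield mutant (its replicate 1), with adjusted p of 0.0522 to 0.0997. Exons of Gclm share 296 bases with Gm17494, on the other strand, and 244 with Gm6061, whose mean level was at most 0.0224 CPM in any group.

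Txnrd1, the cytosolic thioredoxin reductase and also a selenoprotein, was called in none of the comparisons. It lies on chromosome 10, 82833951 to 82897712, plus strand. Its level was 327, 305 and 270 CPM in wildtype and 364, 284 and 331 CPM in mutant libraries of group 1. In group 2 it was 344, 290 and 317 CPM in wildtype, 384, 287 and 369 CPM in mutant and 358, 380 and 311 CPM in low-yield mutant libraries. The groups overlapped in each case. Its log2 fold change was 0.12, 0.13 and 0.14 in the 3 comparisons with wildtype and 0.13 over both groups (SE 0.09, adjusted p 0.337, edgeR). The window with the antioxidant response element core printed above is 1 of its 3 annotated starts, and the counts per gene do not say which start was used.

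The superoxide dismutases did not pass the threshold of edgeR's test in any comparison with the default filter on low counts. Sod1, the copper and zinc enzyme of the cytosol, lies on chromosome 16, 90220754 to 90226329, plus strand. It stood at 530, 519 and 543 CPM in wildtype and 468, 527 and 545 CPM in mutant libraries of group 1, and at 456, 379 and 410, 383, 360 and 399, and 377, 352 and 414 CPM in the wildtype, mutant and low-yield mutant libraries of group 2. These ranges overlapped, and the log2 fold change over both groups was -0.09 (SE 0.05, adjusted p 0.299, edgeR). In group 1 the estimate was -0.05 and turned to 0.01 without mutant replicate 1.

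Sod2, the manganese enzyme of mitochondria, lies on chromosome 17, 13006846 to 13040063, plus strand, and its estimates were above 0. Its level was 234, 206 and 201 CPM in wildtype and 248, 214 and 245 CPM in mutant libraries of group 1. In group 2 it was 218, 200 and 195 CPM in wildtype, 240, 198 and 236 CPM in mutant and 230, 229 and 223 CPM in low-yield mutant libraries. The low-yield mutant libraries were all above wildtype (15.3% of tested genes were higher in this way), and the other groups overlapped. The log2 fold change was 0.14 in group 1, 0.14 in the group 2 mutant, 0.16 in the low-yield mutant and 0.14 over both groups (SE 0.07, adjusted p 0.147, edgeR). Over both groups Sod2 passed with voom (adjusted p 0.0365) and when only genes with a mean of at least 5 CPM were tested (adjusted p 0.047, edgeR).

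Nfe2l2, the gene of NRF2 itself, lies on chromosome 2, 75675513 to 75704641, minus strand. It stood at 125, 121 and 107 CPM in wildtype and at 99.7, 115 and 106 CPM in mutant libraries of group 1, which overlapped. In group 2 the values were 109, 107 and 95.5 CPM in wildtype, 88.1, 92.2 and 95.1 CPM in mutant and 95.6, 89.3 and 92 CPM in low-yield mutant libraries, and the mutant was just below the lowest wildtype library. Log2 fold changes were -0.14, -0.18 and -0.17 in the 3 comparisons with wildtype and -0.16 over both groups (SE 0.06, adjusted p 0.0618, edgeR). It passed over both groups with DESeq2 (adjusted p 0.0245), voom (0.0407), RLE factors (0.0462) and the replicate block (0.049). NRF2 is known to be controlled mainly through the stability of its protein, which RNA counts do not measure.

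**Figure D2:**
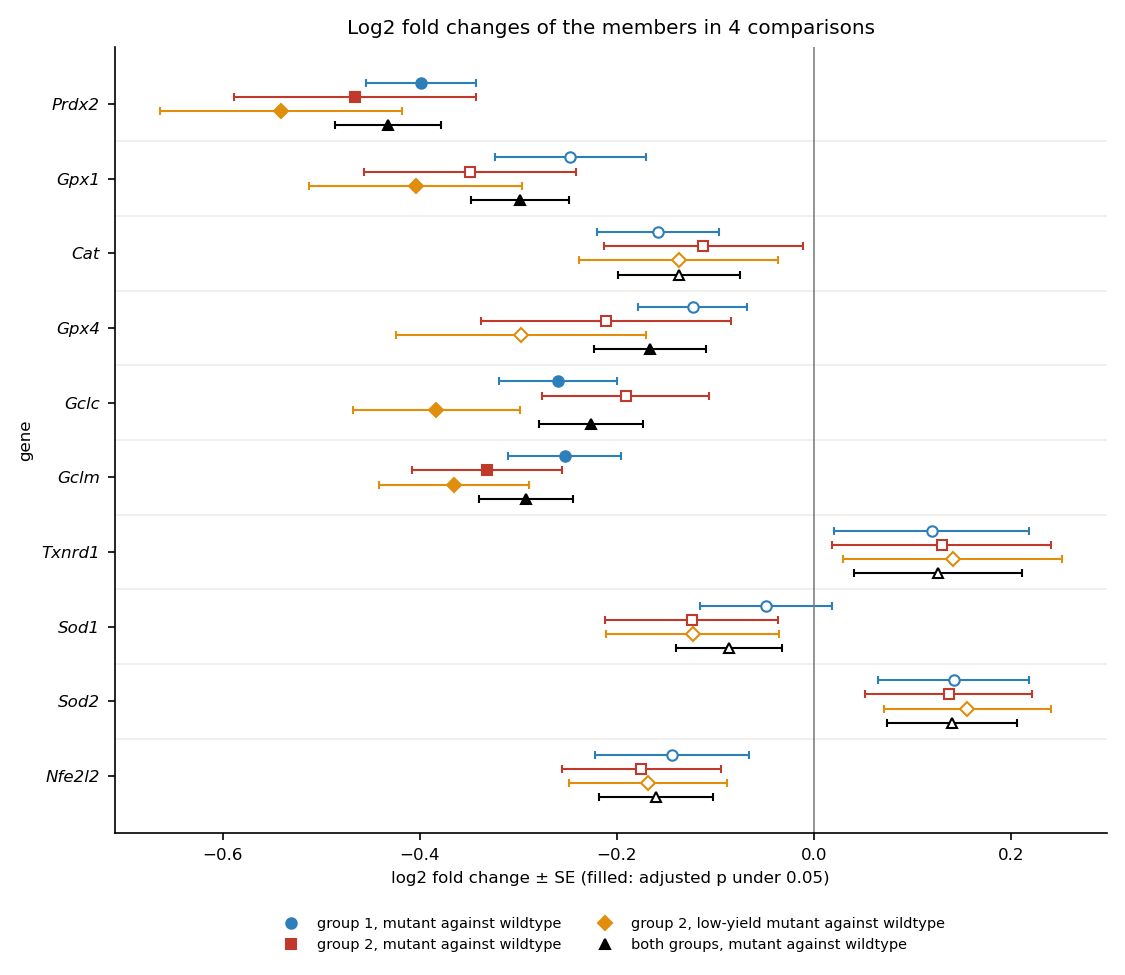
Log2 fold change of each member (horizontal axis, bars SE) in the 3 comparisons with wildtype and over both groups of mice, filled where the adjusted p passed. Prdx2 and Gclm are filled in all 4, while Txnrd1 and Sod2 lie to the right of 0 in all 4 and are open.

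The effect of the mutation on these genes was not shown to differ between the groups of mice. A test of that difference, as a genotype by group interaction, called 3 of 15954 genes (0.0188%, with 342 at an unadjusted p under 0.05), and 0 of the 10 members, whose smallest unadjusted p was 0.428 and whose estimates lay between -0.08 and 0.09 on the log2 scale. By edgeR's test the low-yield and the other mutant libraries of group 2 also had 0 members called, where 0 of 15024 genes were called (0%; 480 at an unadjusted p under 0.05, 6 called by DESeq2 and 4 by voom). The member estimates lay between -0.19 and 0.02. The lowest was Gclc, at -0.19 (SE 0.09, unadjusted p 0.0386, adjusted p 1, edgeR), the one member whose low-yield libraries were all below the mutant ones (4.15% of genes).

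Between genes, levels were compared per kilobase of the principal annotated transcript, as a scale of transcripts rather than reads. The order depends on that length, since the counts are per gene and cover every transcript. In wildtype libraries of group 1 the order was Gpx1 (957 ± 63.8 CPM per kb, SD, n = 3), Sod1 (828 ± 19.3), Prdx2 (527 ± 13.4), Gpx4 (276 ± 2.79) and Txnrd1 (85.1 ± 8.15), with no overlap between neighbours. Gclm (52.1 ± 1.88), Cat (52 ± 2.42) and Nfe2l2 (47.6 ± 3.93) followed and overlapped with their neighbours, then Gclc (41.1 ± 0.197) and Sod2 (36.5 ± 3.03). In wildtype libraries of group 2 the same 5 genes led, and Gpx1 (669 ± 8.91), Sod1 (647 ± 61.2) and Prdx2 (591 ± 15.1) overlapped with their neighbours. In both mutant groups of group 2 Sod1 stood first (594 ± 30.8, and 594 ± 48.4 with low yield) and Gpx1 second (525 ± 20.5 and 506 ± 98.2). The mutant ranges of these genes did not overlap, and the low-yield ones did. Per kilobase of all annotated exons of the gene, the mean of Sod1 was below those of Gpx1, Prdx2 and Gpx4 instead, in both mutant groups of group 2 (95.9 ± 4.97, and 95.9 ± 7.81 with low yield) and in wildtype libraries of group 1 (134 ± 3.11). On that scale Gpx1 led in these 3 groups (391 ± 15.2, 376 ± 73 and 712 ± 47.5), followed by Prdx2 (226 ± 26.3, 215 ± 43.1 and 278 ± 7.1) and Gpx4 (128 ± 11, 121 ± 24.7 and 153 ± 1.55).

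Many members varied together over the 15 libraries, with log2 CPM centred within each group of mice. Pearson's r was highest, at 0.94, between Prdx2 and Gpx1, and was 0.89 between Prdx2 and Gpx4, 0.87 between Gpx1 and Gpx4 and 0.89 between Gclc and Gclm. Other pairs were nearly as high, among them Prdx2 and Gclm (0.81), Gpx4 and Sod1 (0.80), Gpx1 and Gclm (0.78), Cat and Gclc (0.77) and Gpx1 and Sod1 (0.77). Sod2 and Txnrd1 had an r of 0.88 with each other and values of -0.15 to -0.78 with the other 8 members. These values are a description over 15 libraries that share the genotype difference, and carry no test.

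**Figure D3:**
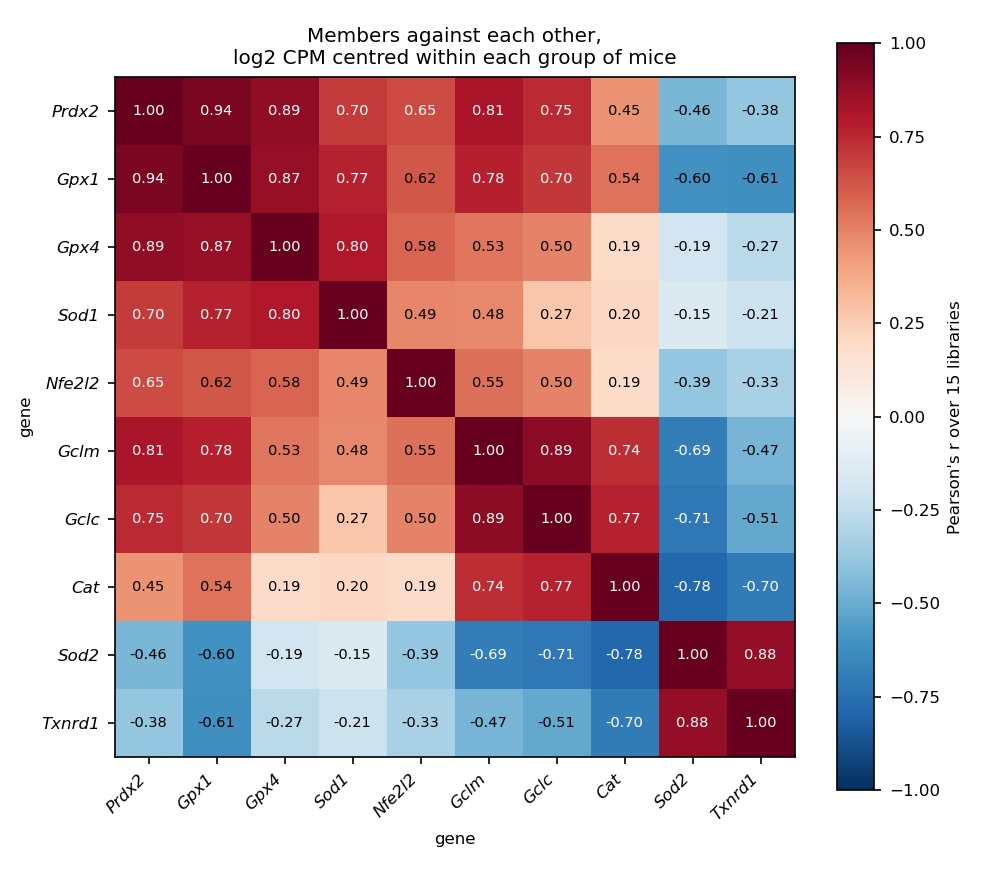
Pearson's r between the members over 15 libraries (colour and number in each cell), with log2 CPM centred within each group of mice. Values among Prdx2, Gpx1 and Gpx4 are 0.87 to 0.94, other pairs such as Prdx2 and Gclm come close at 0.81, and Sod2 and Txnrd1 are negative with all others.

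For the members with the smallest p over both groups, the genes of most similar pattern were found in the same way among 9571 genes. For Prdx2 they included Urod (r 0.989), which encodes an enzyme of haem synthesis, and Chmp2a (0.974). For Gclm they were Aplf (0.98), Prkar2b (0.962) and Hsbp1 (0.961). They were chosen as the highest values, so no p is given.

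Of 103 further genes of the same pathways, 98 were tested over both groups, of which 12 rose and 25 fell, with a median log2 fold change of -0.03, where 9.8% of all tested genes rose and 9.8% fell. In group 1 it was 6 and 18 of 97 (5.79% and 6.78% of all genes), in the group 2 mutant 4 and 11 of 96 (3.32% and 2.95%) and in the low-yield mutant 5 and 14 of 96 (6.68% and 5.86%). The numbers that rose were thus near the share over all genes in each comparison. The values below are from the fit over both groups with edgeR's test, except where named, and the count of each list stands against those 9.8% in each direction.

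Around the peroxidases, 1 of 6 tested genes rose and 0 fell (list median 0.06). The one was Gpx3, a secreted glutathione peroxidase, at 0.387 to 2.6 CPM in wildtype and 1.86 to 8 in mutant libraries of group 1, and at 0.38 to 0.607, 1.39 to 2.5 and 1.32 to 2.43 CPM in group 2 (log2 fold change 1.75, SE 0.44, adjusted p 0.0129). The other 5 peroxiredoxins tested, looked at after the values of Prdx2 were seen, lay between -0.10 (Prdx4, adjusted p 0.45) and 0.17 (Prdx5, adjusted p 0.116) and were not called. Of the thioredoxin and glutaredoxin genes, 1 of 11 rose and 5 fell (median -0.15). Srxn1, the sulfiredoxin that restores overoxidised peroxiredoxins, stood at 9.13 to 12.6 CPM in wildtype and 4.72 to 6.43 in mutant libraries of group 1, and at 9.45 to 11.9, 3.94 to 7.09 and 6.25 to 6.73 CPM in group 2. Its log2 fold change was -0.87 (SE 0.14, adjusted p 0.000162). Txnrd2, the mitochondrial thioredoxin reductase, fell from 87.2 ± 5.33 to 62.7 ± 2.49 CPM in group 1 and from 87 ± 5.3 to 64.3 ± 2 (mutant) and 55.7 ± 6.52 CPM (low-yield mutant) in group 2 (-0.46, SE 0.05, adjusted p 7.58e-06). Glrx3, a glutaredoxin that handles iron and sulfur clusters, rose by 0.21 (adjusted p 0.0065). Among the genes of superoxide removal other than the members, the copper chaperone of Sod1 was the 1 tested gene of 2 and stood at 0 (adjusted p 0.993).

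In the glutathione list 2 of 17 genes rose and 5 fell (median -0.14). Mgst3 and Gsta4, both glutathione transferases, had the lowest values among those at 2 CPM or more. Mgst3 went from 94.2 ± 1.74 to 57.4 ± 4.63 CPM in group 1 and from 84.9 ± 13.9 to 46.6 ± 7.83 and 46.3 ± 13.6 CPM in group 2 (log2 fold change -0.78, SE 0.09, adjusted p 3.51e-06). Gsta4 went from 11.7 ± 0.315 to 6.52 ± 0.0402 CPM in group 1 and from 12.8 ± 2.19 to 7.78 ± 0.792 and 6.5 ± 1.1 in group 2 (-0.78, SE 0.10, adjusted p 2.63e-05). Gstp1 fell in the low-yield mutant (-0.33, SE 0.09, adjusted p 0.0275) and was at -0.14 over both groups (adjusted p 0.137). Of 9 genes of NADPH supply, 2 rose and 3 fell (median -0.08). Me1 (0.62, SE 0.17, adjusted p 0.0117) and Nnt (0.43, SE 0.12, adjusted p 0.017) were higher. The symbol Nnt stands on 2 rows of the tables, and this value is from the row with more counts in total, while the other was not called; how reads were split between them is uncertain. Pgls (-0.20, adjusted p 0.0401) and Tkt (-0.18, adjusted p 0.0228), of the pentose phosphate pathway, were lower.

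The list of NRF2 regulators, partners and related factors had 0 of 10 higher and 2 lower (median -0.01). Mafg, a small MAF partner, was at -0.27 (SE 0.06, adjusted p 0.00155), and Nfe2, the related erythroid factor, at -0.24 (SE 0.05, adjusted p 0.00338). Of 11 tested genes known as NRF2 targets, 1 rose and 5 fell (median -0.25). Nqo1, a quinone reductase, stood at 8.48 to 9.69 CPM in wildtype and 5 to 6.13 in mutant libraries of group 1, and at 6.18 to 9.6, 3.13 to 4.6 and 3.1 to 4.91 CPM in group 2 (log2 fold change -0.84, SE 0.14, adjusted p 0.000187). Srxn1, already described, is the other with the largest fall, and Me1 is the one that rose.

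**Figure D4:**
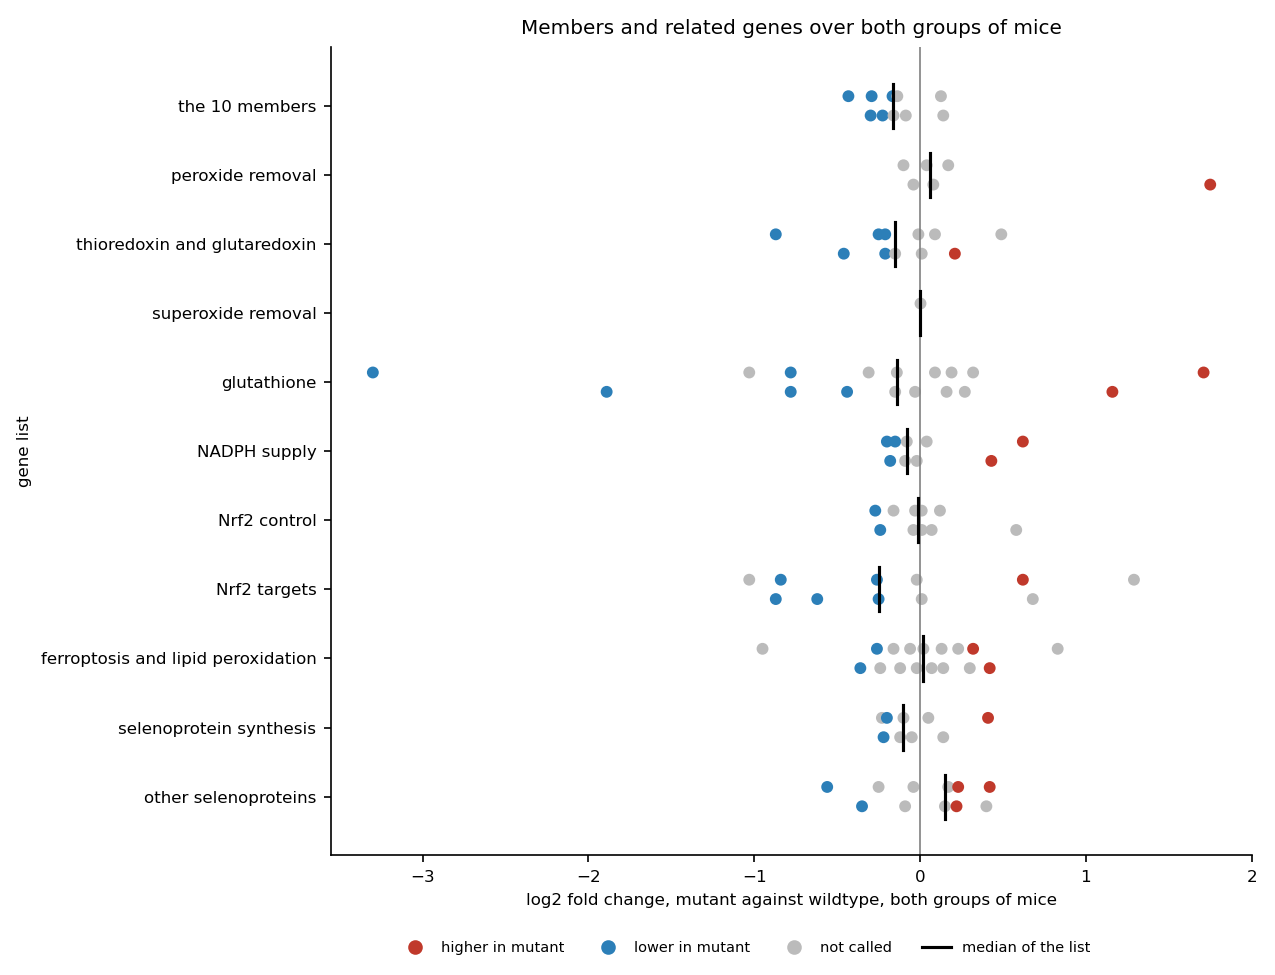
Log2 fold change over both groups of mice (horizontal axis) of the 10 members and of the genes of 10 related lists, 1 point a gene, red where it rose, blue where it fell and grey where it was not called, with the list median as a bar. The median lies at -0.16 for the members and at -0.25 for the NRF2 targets, and within 0.15 of 0 for the other lists.

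Of 17 tested genes of ferroptosis and lipid peroxidation, 2 rose and 2 fell (median 0.02), near the 9.8% of all tested genes in each direction, so the genes named are single genes and not a result on the list. Dhodh, a mitochondrial enzyme of pyrimidine synthesis that also reduces ubiquinone, went from 67.4 ± 6.07 to 91.1 ± 6.73 CPM in group 1 and from 68.3 ± 14.3 to 90.2 ± 9.87 and 93.1 ± 3.2 CPM in group 2 (log2 fold change 0.42, SE 0.08, adjusted p 0.00142). Agps, needed for ether lipids, was at 0.32 (SE 0.05, adjusted p 0.000122). Pla2g6, a phospholipase, was at -0.36 (SE 0.08, adjusted p 0.00338), and Ncoa4, the receptor that sends ferritin to breakdown, at -0.26 (SE 0.07, adjusted p 0.0111). Alox5, a lipoxygenase that granulocytes are known to express, rose in the low-yield mutant (1.36, SE 0.26, adjusted p 0.00345), where summed granulocyte markers were 180 to 394 CPM against 18 to 37.4 in wildtype. Their part in this value was not tested.

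Gpx1, Gpx4 and Txnrd1 are selenoproteins, so the genes that insert selenocysteine and the other selenoproteins were counted as well. Of 9 genes of selenoprotein synthesis, 1 rose and 2 fell (median -0.10). Pstk, the kinase that acts on the transfer RNA of selenocysteine, was at 0.41 (SE 0.09, adjusted p 0.00322), while Scly (-0.22, adjusted p 0.0344) and Secisbp2 (-0.20, adjusted p 0.0254) were lower. Of 11 other selenoproteins, 3 rose and 2 fell (median 0.15). Selenos (0.42, SE 0.10, adjusted p 0.0065) and Selenot (0.23, SE 0.06, adjusted p 0.0103) were higher. Selenoo (-0.56, SE 0.07, adjusted p 1.66e-05) and Selenow (-0.35, SE 0.05, adjusted p 9.38e-05) were lower, and both also fell in each comparison with wildtype.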

How the data were processed

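RNA of 15 libraries had been extracted with the RNeasy Micro Kit and read as 151 bp paired ends on a NovaSeq, per the labels. The submitters' processing notes name cutadapt 2.3, FastQC 0.11.8, STAR 2.7.8a, RSEM 1.3.3, MultiQC 1.7 and build GRCm38. The annotation release and the strand setting are not given in the sources used here. The authors deposited expected counts, estimated per gene and not normalised, as whole numbers, so rounding changed nothing. Of 55487 mouse genes, 55227 are in GENCODE M21, the source of the coordinates. Rows of reporter sequences held 5 counts in all and were left out.

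The test was edgeR's quasi-likelihood F test (version 4.0.16, R 4.3.3; TMM factors, filterByExpr, robust fit, two-sided). P-values were adjusted by Benjamini-Hochberg over all tested genes, and a gene under 0.05 is "called". Fits used 6 libraries for group 1, 9 for the comparisons of group 2, and 12 for both groups and the interaction, where the group of mice was a term. The code was tested on simulated data. The members, lists and tests were chosen with earlier results of these data known. Named are all members and, per related list, at most the 2 genes that rose and the 2 that fell the most over both groups with a mean of at least 2 CPM, at most 1 called in the low-yield mutant and not over both groups, and for each of 2 members the 3 most similar genes, passing over Gm and Rik names (log2 of CPM plus 0.5). Of these similar genes, 1 is not reported here. Near-identical copies were found with BLAST 2.17.0 at 95% identity.

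Replicate numbers come from the library titles. Deviations of same-numbered wildtype and mutant libraries from their group means correlated at 0.53, 0.14 and 0.30 over genes in group 1. Differently numbered libraries there gave -0.5 to 0.36, the highest for wildtype replicate 3 with mutant replicate 2. In group 2 the same-numbered values were 0.35, 0.26 and 0.05 for the mutant and 0.21, -0.23 and 0.02 for the low-yield mutant. The differently numbered ones were -0.3 to 0.11 and -0.22 to 0.25. These values do not settle whether the numbers pair the libraries. No pair of replicates within a group agreed within sampling noise; libraries of different groups were not compared in this way. Alternatives were DESeq2 1.42.0, voom with quality weights (limma 3.58.1), upper-quartile and RLE factors, other filters, the replicate block, summed copies, each library left out, only the compared libraries of group 2, and, added after seeing the data, the legacy mode of the edgeR fit.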

Additional observations from a re-analysis of the deposited data

How the results depend on the processing

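Of 740 single values of members under alternatives in the 4 comparisons with wildtype, 681 kept their direction and side of the threshold, 34 lost their call, 24 gained one and 1 turned direction. Sod1 in group 1, at -0.05, turned to 0.014 without mutant replicate 1, and lay between -0.09 and 0.014 with 1 library left out. The cause was not tested. Genes called in group 1 went from 1766 to 2863 with the replicate block. In the group 2 mutant they went from 942 to 1452 with DESeq2 and 1928 with voom, and in the low-yield mutant from 1884 to 3348 with voom. Between low-yield and other mutants they went from 0 to 6 with DESeq2 and 4 with voom, and for the interaction from 3 to 13 with DESeq2 and 5 with the replicate block. The members called in the group 2 mutant went from 2 to 1 without the filter on low counts, where more genes were tested.

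Leaving out 1 library gave 753 to 1729 called genes and 1 to 4 called members in group 1, 425 to 1323 and 0 to 3 in the group 2 mutant, 900 to 2395 and 0 to 5 in the low-yield mutant, and 2526 to 3629 and 4 to 6 over both groups. It gave 2 to 3 called genes for the interaction and 0 to 22 between the mutants of group 2, with 0 members in both. In group 2 the replicate block also called Gpx1 in the mutant (adjusted p 0.0247, edgeR), though whether the numbers pair those libraries is not settled. Over both groups, Nfe2l2 passed without group 1 wildtype replicate 3, group 1 mutant replicate 2 or group 2 wildtype replicate 3 (0.0258 to 0.0492). Of 190 member values between the mutants of group 2 and 210 for the interaction, 22 and 27 changed sign, none with a size above 0.11, and 0 were called.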
